A study of Mus musculus with 6 samples.

Results

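The nuclear genes of the respiratory chain and ATP synthase were followed in mCherry-positive cells sorted from the cortex of mice given clozapine-N-oxide (CNO) or saline. Members were chosen by symbol: rows beginning with Ndufa, Ndufb, Ndufc, Ndufs, Ndufv, Uqcr, Cox4i, Cox5, Cox6, Cox7, Cox8 or Atp5, and Sdha, Sdhb, Sdhc, Sdhd, Cyc1 and Cycs, without assembly factors named Ndufaf. Of 24421 rows, 87 symbols matched, 4 were dropped because they were listed at 0 in all 6 libraries, and 83 remained. They comprise 35 genes of complex I, 4 of complex II, 9 of complex III, cytochrome c, 17 of complex IV and 17 of ATP synthase. Ndufa4 and its relative Ndufa4l2 were placed with complex IV, where the Ndufa4 protein resides. Atp5s and Atp5sl were counted with ATP synthase by symbol, although they encode no subunit of the enzyme itself.

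All animals were CD51-Flp mice that received the virus AAV-GFAP-FSF-hM3D-mCherry after birth, so that Flp, made where CD51 (integrin alpha V) is expressed, allows expression of the Gq-coupled designer receptor hM3D with mCherry under the GFAP promoter. The CNO group (libraries 1, 2 and 3) and the saline group (libraries 3, 4 and 5) received injections 2 times per day, starting on postnatal day 7 and ending on day 21, when mCherry-positive cells were collected from the cortex by sorting. Both groups carried receptor and virus, and no group received CNO without the receptor. The labels do not say whether the libraries come from separate or pooled animals, so a p-value reflects no more than the variation among these 6 libraries, which may be technical.

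The respiratory chain passes electrons from NADH (complex I) or succinate (complex II) through complex III, cytochrome c and complex IV to oxygen, and ATP synthase uses the resulting proton gradient to make ATP. Most subunits are encoded in the nucleus and imported, while a core set is encoded by mitochondrial DNA. Astrocytes are known for high glycolytic activity but also hold many mitochondria, including in the fine processes near synapses. The mitochondrially encoded genes of the list (0 of 13 symbols matched) were not analysed here.

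Libraries held 3908076 to 19224186 reads, and the shallowest was CNO 1. Values are normalized counts, the reads per gene divided by the size factor of the library, so that 1 read was worth 4.23 in CNO 1 and 0.503 to 0.970 in the others. All 20 astrocyte markers were detected and took 1.29% to 4.47% of reads in CNO and 2.46% to 3.61% in saline. Oligodendrocyte markers (12 genes) took 11.1% to 24.6% in CNO and 5.34% to 7.87% in saline, without overlap. In every library they took more reads than the astrocyte markers. Microglia and macrophage markers took 0.745% to 1.49% and 1.34% to 1.77%, and neuron markers 0.102% to 0.142% and 0.133% to 0.156%. No neuron, microglia or oligodendrocyte marker was at 0 in all libraries. The part of other cell types in the values below was not tested, and in these bulk samples fewer cells of a type and less RNA per cell cannot be told apart.

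No member of the respiratory chain or ATP synthase passed the test between CNO and saline. The test was limma on log2(normalized count + 1) over all 13028 genes with a mean of at least 10, of which 2, or 0.0154%, passed at a Benjamini-Hochberg adjusted p under 0.05. Of the 83 members, 80 reached that mean, and 0 passed (smallest limma adjusted p = 0.496). Without adjustment, 3 members were higher and 1 was lower at p under 0.05, where all tested genes gave 2.28% higher and 7.25% lower. The lower 1 was Cox6a2, which reached the mean of 10 only through saline (mean 22.8, beside 0 in CNO). On the recovered reads 0 members passed in edgeR (background 0.0% with this filter and 0.0966% without it), DESeq2 (1.91%) or limma-voom (0.123%), and 0 passed in limma with array weights (0.0844%). At an unadjusted p under 0.05, edgeR had 6 members higher and 2 lower, beside 3.63% and 5.7% of all tested genes. DESeq2 had 5 and 1 (4.24% and 7.15% of all), and limma-voom 2 and 0 (2.31% and 8.99%).

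Fold changes, given as CNO minus saline on the log2 scale, lay above 0 for 38 of the 80 members and below 0 for 42. This count depended on the setting: 20 lay above 0 with equal totals, 53 with quantile scaling, 52 in edgeR and 56 in DESeq2. The sign of 50 of the 80 members changed under at least 1 of the other 21 settings, so a direction given below for a single gene need not hold under another setting. Their median was -0.05, beside -0.89 for all tested genes, of which 31.7% lay above 0. Without CNO 2 the members' median was -0.62, and without CNO 1 it was 0.30. Leaving out CNO 2 left 8 members lower at an unadjusted p under 0.05, where 16.5% of all tested genes were. By complex, 12 of 35 tested genes of complex I lay above 0 (median -0.38), 3 of 4 of complex II (0.40), 6 of 9 of complex III (0.51), 9 of 15 of complex IV (0.56) and 7 of 16 of ATP synthase (-0.36). With every library scaled to the same total, the median over all genes moved to -1.52 and over the members to -0.73, and the complexes stood at -1.07, -0.29, -0.19, -0.14 and -1.06 in the same order. The direction of complexes II, III and IV therefore depends on the scaling. So does that of complex I, which stood at 0.36 with quantile scaling, where 23 of its 35 genes lay above 0. With quantile scaling complexes II, III and IV stayed above 0 (0.54, 0.54 and 0.59), and ATP synthase stood at -0.13. The medians of complex I and ATP synthase turned positive without CNO 1 (0.12 and 0.36), and were also positive in edgeR (0.22 for both) and DESeq2 (0.40 and 0.35). The 16 genes counted with ATP synthase include Atp5sl (-2.26), which encodes no subunit of the enzyme. With only genes read in every library, which leaves out Atp5sl, the median of ATP synthase was -0.016, with 7 genes above 0. All tested genes then had a median of -0.088.

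**Figure D1:**
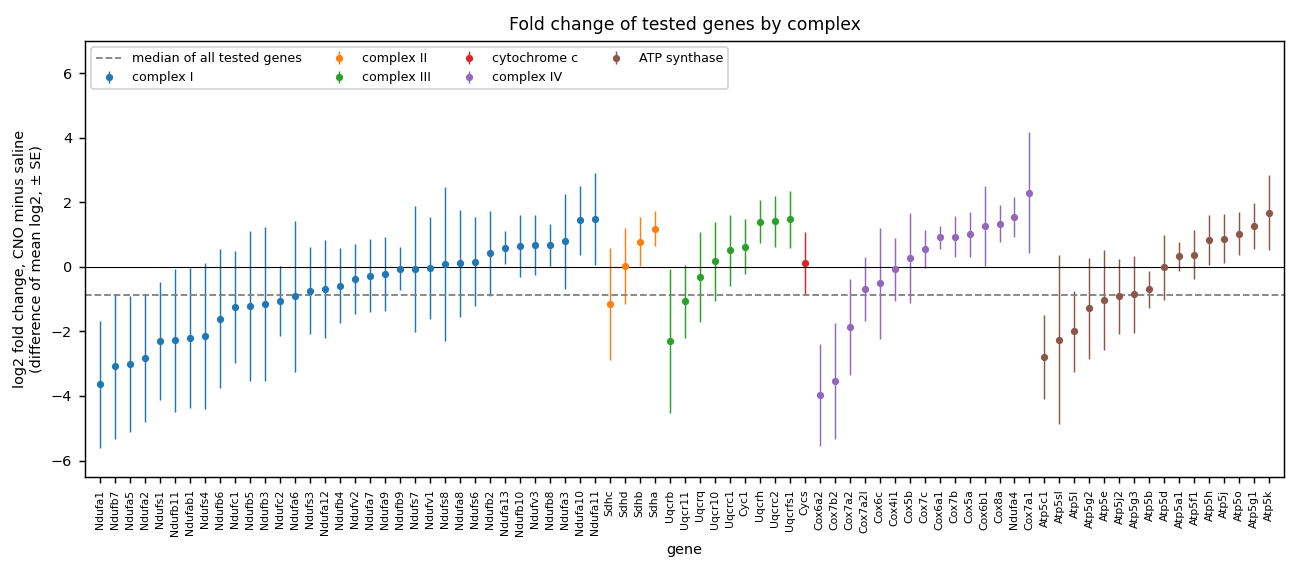
Log2 fold change (CNO minus saline, difference of mean log2(normalized count + 1)) of 79 of the 80 tested genes, ordered within complexes; points are estimates, bars are ± 1 SE from limma, and the dashed line is the median of all tested genes at -0.89. Estimates run from -3.96 for Cox6a2 to 2.30 for Cox7a1, and none passed the adjusted threshold.

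Fold changes were also compared by the level of the gene. Of 7 members with a mean of 10 to 100 normalized counts, 1 lay above 0 (median -3.08), beside 15.2% of all tested genes at that level (-2.28). Of 24 members with a mean of 100 to 300, 6 lay above 0 (median -0.71), beside 21.6% of all tested genes at that level (median -1.44). Between 300 and 1000, 17 of 33 members lay above 0 (0.11), beside 38.8% of all (-0.35). Between 1000 and 3000, 11 of 12 lay above 0 (1.27), beside 64.5% of all (0.29). At 3000 or more, 3 of 4 members lay above 0 (0.62), beside 80.6% of all (0.50), so that among members the median was not highest at the top. The level is the mean over all 6 libraries, which includes the CNO values compared, so genes high in CNO are moved toward higher levels. These comparisons are descriptions and were not tested.

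Complex I takes electrons from NADH. The nuclear genes for its core subunits include Ndufs1, Ndufs7, Ndufs8, Ndufv1 and Ndufv2, which bind the flavin or iron-sulfur clusters. Ndufs3 is also a core subunit, and most other nuclear subunits are accessory. Ndufs1, the largest core subunit, stood at 317, 554 and 1.94 normalized counts in CNO 1, 2 and 3 and 397, 785 and 194 in saline 3, 4 and 5, so that CNO 3 was far below the rest at 2 reads. Ndufs7, an iron-sulfur subunit, went the other way, at 4.23, 279 and 3219.9 in CNO and 197, 224 and 119 in saline. Ndufv1, the flavin-binding subunit, stood at 934, 212 and 14.6 in CNO and 124, 113 and 237 in saline. Its highest and its lowest value both lay in CNO. Ndufv2 stood at 583, 1240.1 and 76.6 in CNO and 782, 319 and 492 in saline. Ndufs3 ran from 29.6 to 288 in CNO and from 116 to 456 in saline. Ndufs8 stood at 4.23, 582 and 55.3 in CNO and 175, 1.60 and 311 in saline. Its values in CNO 1 and saline 4 rest on 1 and 2 reads, so which of these libraries is lowest cannot be told.

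Among accessory subunits of complex I, 2 had all CNO libraries below all saline libraries. Ndufa1, an accessory subunit encoded on the X chromosome, stood at 4.23, 27.4 and 1.94 in CNO and 103, 46.4 and 170.1 in saline, a log2 fold change of -3.64 ± 1.97 (SE, limma adjusted p = 0.563). These CNO values rest on 1, 37 and 2 reads. Ndufc2 stood at 144, 185 and 109.6 in CNO and 560.1, 219 and 215 in saline, with the gap to saline 4 and 5 small beside the spread within saline. By unadjusted p, Ndufa5 (-3.01 ± 2.10), Ndufa2 (-2.82 ± 1.99) and Ndufb7 (-3.08 ± 2.24) followed Ndufa1. Ndufb7 had reads in CNO 2 only among the CNO libraries, and its estimate was -0.38 in DESeq2 and -0.44 in edgeR. Ndufa2 stood at 4.23, 426 and 5.82 in CNO and 137, 162 and 235 in saline, so CNO 2 lay above and CNO 1 and 3 below every saline library.

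Other accessory subunits were uneven between CNO libraries. Ndufa10 stood at 6094, 376 and 406 in CNO and 506, 291 and 315 in saline. Ndufa6 stood at 1441, 297 and 0 in CNO and 154, 68.8 and 267 in saline, and had no read in CNO 3. Ndufb3 stood at 562, 34.0 and 0 in CNO and 52.7, 29.6 and 133 in saline. In each of these genes CNO 1 was the highest library of all 6. Ndufs4, Ndufb5 and Ndufb11 instead had 0 reads in CNO 1. Ndufs4 stood at 1028 and 692 in CNO 2 and 3 and 1075, 328 and 173 in saline, with its highest value in saline 3. Ndufb5 stood at 549.7 and 298 in CNO 2 and 3 and 59.0, 68.8 and 485 in saline. Ndufb11 stood at 807 and 79.6 in CNO 2 and 3 and 210, 105 and 333 in saline. The highest subunit of complex I per length was Ndufa13, with 1771, 3289.5 and 3445 in CNO and 2127, 2136 and 1281 in saline, where the groups overlapped. Per kilobase of exon it averaged 1872 normalized counts over the 6 libraries, and the lowest tested members of complex I were Ndufb7 at 7.38 and Ndufab1 at 16.9. The summed annotated exons of Ndufb7 and Ndufab1 are long, at 4522 and 6883 bases beside 1251 for Ndufa13, which lowers their values per kilobase. Ndufb9, the next highest of the complex, stood at 532, 1592 and 1238 in CNO and 717, 1184 and 1406 in saline. Ndufs5, an accessory subunit, was listed at 0 in all 6 libraries, where a floor of 3 reads corresponds to 1.51 to 12.7 normalized counts.

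Complex II, succinate dehydrogenase, also belongs to the citrate cycle and has no mitochondrially encoded subunit. Sdha, the flavoprotein subunit, stood at 2421, 4133 and 9256 in CNO and 2520.4, 1871 and 1669.9 in saline. Its mean was 5270.2 ± 3556 in CNO and 2020.6 ± 444 in saline (SD, n = 3 each), with CNO 1 inside the saline range, and its log2 fold change was 1.18 ± 0.55 (SE, limma adjusted p = 0.530). Sdhb, the iron-sulfur subunit, averaged 705 ± 167 and 422 ± 156, with all CNO libraries between 592 and 896 and saline between 328 and 602. The membrane anchors Sdhc and Sdhd were less even. Sdhc stood at 4.23, 508 and 543 in CNO (1, 686 and 560 reads) and at 219, 347 and 206 in saline, so that CNO 2 and 3 lay above saline and CNO 1 below it. Sdhd stood at 355, 598 and 54.3 in CNO and 235, 196 and 235 in saline, where CNO 3 was the low library. The log2 fold changes of Sdhc (-1.15 ± 1.73) and Sdhd (0.035 ± 1.18) had no stable sign across settings.

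Complex III passes electrons from ubiquinol to cytochrome c. Uqcrh, the hinge protein that aids docking of cytochrome c, stood at 7121, 1964 and 1313 in CNO and 1071, 954 and 977 in saline. Uqcrfs1, the Rieske iron-sulfur protein, stood at 1023, 902 and 278 in CNO and 210.3, 237 and 243 in saline. The lowest CNO library exceeded the highest saline library in both genes, by a narrow margin in CNO 3, with log2 fold changes of 1.40 ± 0.67 (limma adjusted p = 0.543) and 1.47 ± 0.89 (adjusted p = 0.598). Uqcrc2, a core subunit of the matrix arm, stood at 4742, 1403 and 608 in CNO and 629, 440.2 and 769 in saline, high in CNO 1 and 2 (1.41 ± 0.79). Its partner Uqcrc1 was high in CNO 3 instead, at 254, 213 and 2171 in CNO and 854, 220.1 and 216 in saline. Cyc1, the cytochrome c1 subunit, stood at 342, 522 and 1119 in CNO and 374, 241 and 601 in saline, and overlapped. Cycs, the somatic cytochrome c, was 524, 419.5 and 177 in CNO and 241, 200.1 and 639 in saline, with a log2 fold change of 0.11 ± 0.96. Uqcrb, which supports ubiquinone binding, had 0 reads in CNO 3 and -2.30 ± 2.24. Per kilobase the small subunits spanned the range of the complex, from Uqcrb at 96.7 and Uqcrq at 104.8 to Uqcr10 at 1264 and Uqcrh at 1805 normalized counts. Uqcr10 stood at 59.2, 1267 and 1638 in CNO and 338, 325 and 801 in saline.

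Complex IV, cytochrome c oxidase, reduces oxygen. Its nuclear subunits surround a mitochondrially encoded core, and several exist as paralogs used in different tissues. Cox6a1, the form of subunit VIa used outside heart and skeletal muscle, was the highest member in all 6 libraries and made up 11.2% to 19.0% of the members' summed normalized counts. It stood at 15023, 9855 and 13841 in CNO and 4798, 7494 and 8559 in saline. All CNO libraries were above all saline libraries, with means of 12906.5 ± 2708 and 6950.3 ± 1938 (SD, n = 3 each) and a log2 fold change of 0.91 ± 0.36 (SE, limma adjusted p = 0.496). Per kilobase of exon Cox6a1 averaged 14143 normalized counts, 5.49 times the next member, Cox8a, at 2578. Cox8a stood at 3047, 2019.9 and 1762 in CNO and 601, 885 and 1260.2 in saline (1.34 ± 0.58, adjusted p = 0.516). Ndufa4 stood at 3000.4, 1537 and 2165 in CNO and 817, 424 and 1140.4 in saline (1.55 ± 0.62, adjusted p = 0.496). Cox7b was the evenest of the detected members in CNO, at 1285, 1452 and 1291, and stood at 423, 670.0 and 1207 in saline (0.94 ± 0.65, adjusted p = 0.631).

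Of the 80 tested members, 6 were thus higher in every CNO library (Cox6a1, Cox7b, Cox8a, Ndufa4, Uqcrh and Uqcrfs1), where 4.57% of all tested genes were, and 4 were lower in every one (Ndufa1, Ndufc2, Cox6a2 and Atp5l), where 12.5% of all were. The 6 did not hold on another scale. The normalized counts of all genes summed to 14223800 to 16592000 in the CNO libraries and to 9588490 to 9857830 in saline, so a gene with the same share of reads has a higher normalized count in CNO. In RPM, the reads scaled to the same total in every library, 0 of the 80 members were higher in every CNO library (background 1.13%) and 7 were lower (background 21.3%). Cox6a1 then took 909.7, 693 and 834 RPM in CNO and 487, 779 and 893 in saline, and its means were 812 ± 110.0 and 719.6 ± 209, a ratio of 1.13. For the other 5 the ratio of means in RPM ran from 1.08 for Cox7b to 2.09 for Uqcrh, and all 5 overlapped. The 7 lower genes were Ndufa1, Ndufc2, Cox6a2 and Atp5l with Ndufa5, Uqcr11 and Atp5c1 added.

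**Figure D2:**
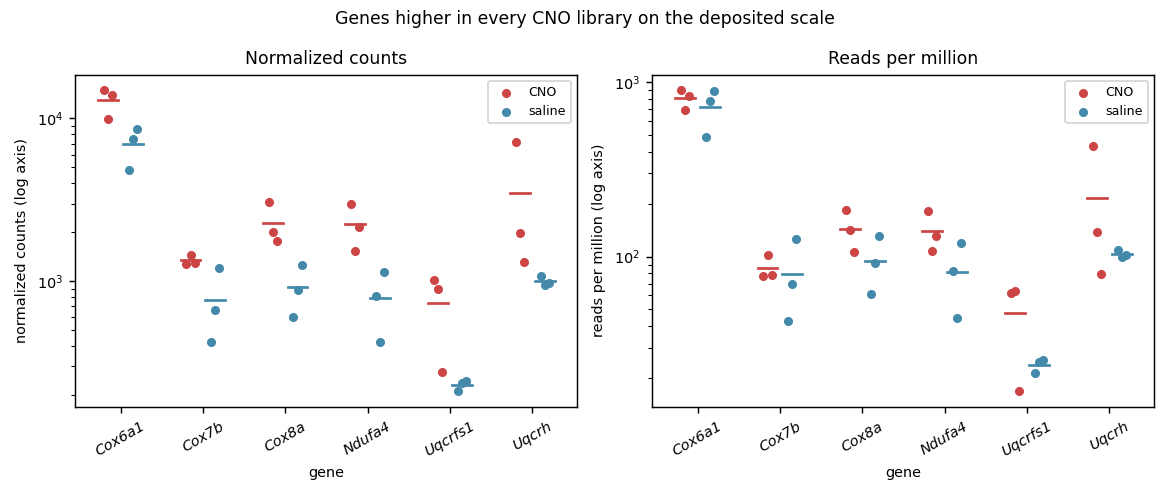
The 6 genes that were higher in every CNO library on the deposited scale, as normalized counts (left) and RPM (right), both on log axes; points are libraries (CNO 1, 2 and 3 or saline 3, 4 and 5 from left to right) and bars are group means. On the right the groups overlap for all 6 genes, as for Cox6a1 at 812 against 719.6 on average.

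The promoters of 3 of these 6 genes are shown because their windows hold letters of motifs known from respiratory chain genes. Each is the RefSeq window on GRCm38.p6 from 250 bases before to 50 after the annotated start, 5′ to 3′ on the strand of the gene, with matches in capitals. Cox6a1 (protein-coding, GENCODE gene at 115345642 to 115348981 on chromosome 5, minus strand) has its window at chr5:115348909-115349208, Cox8a (chromosome 19, 7215153 to 7217616, minus strand) at chr19:7217567-7217866, and Uqcrh (chromosome 4, 116066965 to 116075071, minus strand) at chr4:116075021-116075320.
Cox6a1: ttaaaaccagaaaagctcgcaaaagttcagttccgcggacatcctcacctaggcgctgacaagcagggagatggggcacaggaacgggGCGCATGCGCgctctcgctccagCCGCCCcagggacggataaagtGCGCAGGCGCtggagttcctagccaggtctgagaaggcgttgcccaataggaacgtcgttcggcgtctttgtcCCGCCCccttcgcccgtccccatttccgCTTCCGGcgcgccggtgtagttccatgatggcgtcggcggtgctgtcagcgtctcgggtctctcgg
Cox8a: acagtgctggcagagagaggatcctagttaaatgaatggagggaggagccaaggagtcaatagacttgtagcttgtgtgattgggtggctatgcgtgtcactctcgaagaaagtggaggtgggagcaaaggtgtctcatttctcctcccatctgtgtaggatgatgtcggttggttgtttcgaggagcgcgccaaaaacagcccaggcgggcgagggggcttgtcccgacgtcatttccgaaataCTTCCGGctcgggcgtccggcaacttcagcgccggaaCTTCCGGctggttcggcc
Uqcrh: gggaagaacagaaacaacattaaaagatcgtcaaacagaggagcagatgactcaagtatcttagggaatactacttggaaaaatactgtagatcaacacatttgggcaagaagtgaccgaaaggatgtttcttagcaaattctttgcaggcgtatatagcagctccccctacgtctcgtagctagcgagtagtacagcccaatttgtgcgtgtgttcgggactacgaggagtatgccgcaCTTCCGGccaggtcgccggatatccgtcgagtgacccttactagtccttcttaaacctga

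Motifs were searched on both strands as GCGCA and GCGC with any 1 base between them for NRF1, a factor that acts on many respiratory genes, as CCGGAAG for ETS factors such as GABP, AAGATGGC for YY1 and GGGCGG for SP1, and a NRF1 match read on both strands was counted once. Cox6a1 holds NRF1 letters 162 and 117 bases before the start, SP1 letters 139 and 44 before it and ETS letters 16 before it. Cox8a holds ETS letters 5 bases before and 32 after the start, and Uqcrh 10 before it. Windows of Ndufa4, Cox7b and Uqcrfs1 hold none of these 4 strings. Of the 69 members with a RefSeq window, 16 (23.2%) held the NRF1 string, beside 11.3% of 9959 tested protein-coding genes and 7.17% of all 17492. The YY1 string was in 11 (15.9%), beside 5.18% and 3.57%, the ETS string in 16 (23.2%), beside 19.2% and 12.9%, and the SP1 string in 30 (43.5%), beside 68.4% and 49.2%. The YY1 string stood in 7 of 31 windows of complex I, 4 of 16 of ATP synthase and 0 of 13 of complex IV. Genes with several annotated starts had several windows and counted once if any matched. A match is a run of letters and does not show binding.

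The tissue paralogs of complex IV were rare. Cox6a2, the heart and skeletal muscle form of subunit VIa, had 0 reads in all CNO libraries and 11, 67 and 17 reads in saline 3, 4 and 5 (6.24, 53.6 and 8.56 normalized counts). Against a floor of 3 reads per library, which averages 5.94 normalized counts in CNO, its mean was at least 3.84-fold lower in CNO, with a fitted log2 fold change of -3.96 ± 1.57 (limma adjusted p = 0.496). The bound rests on saline 4 and is 1.25-fold without it, and saline 3 and 5 lie under the floor of CNO 1 (12.7). It took 0.0999% to 0.711% of the reads of the Cox6a1 and Cox6a2 pair in saline. Cox7b2, a testis form, had 0, 25 and 143 reads in saline and 0 in CNO, at least 5.17-fold lower. That bound rests on saline 5 and is 1.69-fold without it, and saline 3 overlaps CNO at 0. Cox7a1, the heart and muscle form of subunit VIIa, had 121 reads in CNO 3 and 0 in the other 5 libraries. In CNO 3 it took 75.6% of the reads of the pair with Cox7a2. Cox6a2 and Cox7b2 thus entered the test only through saline, and Cox7a1 only through CNO 3. In CNO 3 Cox7a2 itself stood at 37.8, beside 21.1 and 792 in CNO 1 and 2 and 226, 267 and 542 in saline. Cox6b2 had 15 reads in all, none in CNO, and Ndufa4l2 had 2. Cox4i2, Cox8b and Cox8c were listed at 0 throughout. Medians of the members and of complex IV stayed at -0.05 and 0.56 with the genes at 0 in a whole group set to their bounds.

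The remaining subunits of complex IV varied without a common direction. Cox4i1, the ubiquitous form of subunit IV, stood at 216, 872 and 266 in CNO and 273, 241 and 896 in saline, and the means of 451 ± 366 and 470.0 ± 369 (SD, n = 3 each) were close beside that spread. Cox5a stood at 2172, 1249.7 and 653 in CNO and 825, 499 and 529.9 in saline. Cox5b stood at 29.6, 389 and 621 in CNO and 164, 78.4 and 317 in saline. Cox5a was highest and Cox5b lowest in CNO 1. Cox6b1, which faces the intermembrane space, was high in CNO 1, at 7370.1, 739 and 132 in CNO and 372, 241 and 563 in saline. Cox6c stood at 8.45, 1058 and 696 in CNO and 121, 160.1 and 1027 in saline. Cox7c stood at 3022, 1669.9 and 1846 in CNO and 995, 1119.8 and 2631 in saline. All 3 of these genes overlapped between groups. Cox7a2l, a factor of respiratory supercomplexes, averaged 342 ± 219.9 and 456 ± 169.8.

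ATP synthase consists of a catalytic head, a rotating ring of c subunits and a peripheral stalk. Atp5a1, the alpha subunit, was even, at 4864, 3172 and 2729 in CNO and 3213, 2519.7 and 2623 in saline. Atp5b, the catalytic beta subunit, stood at 1614, 5144 and 1278 in CNO and 2909, 3710.0 and 4237 in saline, so that CNO 1 and 3 lay below and CNO 2 above saline. Atp5c1, the gamma subunit of the central stalk, stood at 114, 807 and 15.5 in CNO and 849, 739.6 and 808 in saline (-2.79 ± 1.31, limma adjusted p = 0.537). Atp5d, the delta subunit, ran from 114 to 1158 in CNO and 370.2 to 943 in saline, and Atp5e, the epsilon subunit, from 21.1 to 243 and 53.6 to 287. Atp5l, the g subunit of the membrane part, stood at 38.0, 251 and 50.4 in CNO and 258, 287 and 433 in saline, lower in every CNO library (-2.0004 ± 1.25, adjusted p = 0.604). Atp5o, the stalk subunit OSCP, stood at 1327, 935 and 1657 in CNO and 652, 369 and 998 in saline (1.03 ± 0.67), and Atp5g1 had 1.26 ± 0.72. Atpif1, the inhibitor of the enzyme and no member by symbol, stood at 105.6, 2349 and 726 in CNO and 896, 697 and 911 in saline (-0.55 ± 1.02), so that its lowest and highest values were both in CNO. Its mean was higher in CNO (1060.2 against 835), and its estimate was 0.35 in DESeq2.

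Atp5g1, Atp5g2 and Atp5g3 encode the same mature c subunit with different import sequences. Per kilobase, Atp5g1 made up 92.8%, 21.8% and 49.1% of the 3 genes in CNO 1, 2 and 3 and 43.5%, 19.4% and 14.9% in saline 3, 4 and 5. Atp5g2 made up 1.61%, 49.5% and 35.4% in CNO and 31.1%, 45.4% and 56.0% in saline. In CNO 1, Atp5g2 rested on 2 reads. These shares depend on the length used, the union of all annotated exons, at 4912, 1675 and 2181 bases for Atp5g1, Atp5g2 and Atp5g3. In saline 4 Atp5g1 had the most reads (407, beside 325 and 328) but the smallest share per kilobase. Of the symbols that begin with Atp5 but encode no subunit of the enzyme itself, Atp5sl, an assembly protein of complex I, stood at 0, 5.92 and 1749 in CNO and 129, 27.2 and 358 in saline, so that CNO 1 and 2 lay below and CNO 3 above every saline library. Atp5s was too low for the test.

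**Figure D3:**
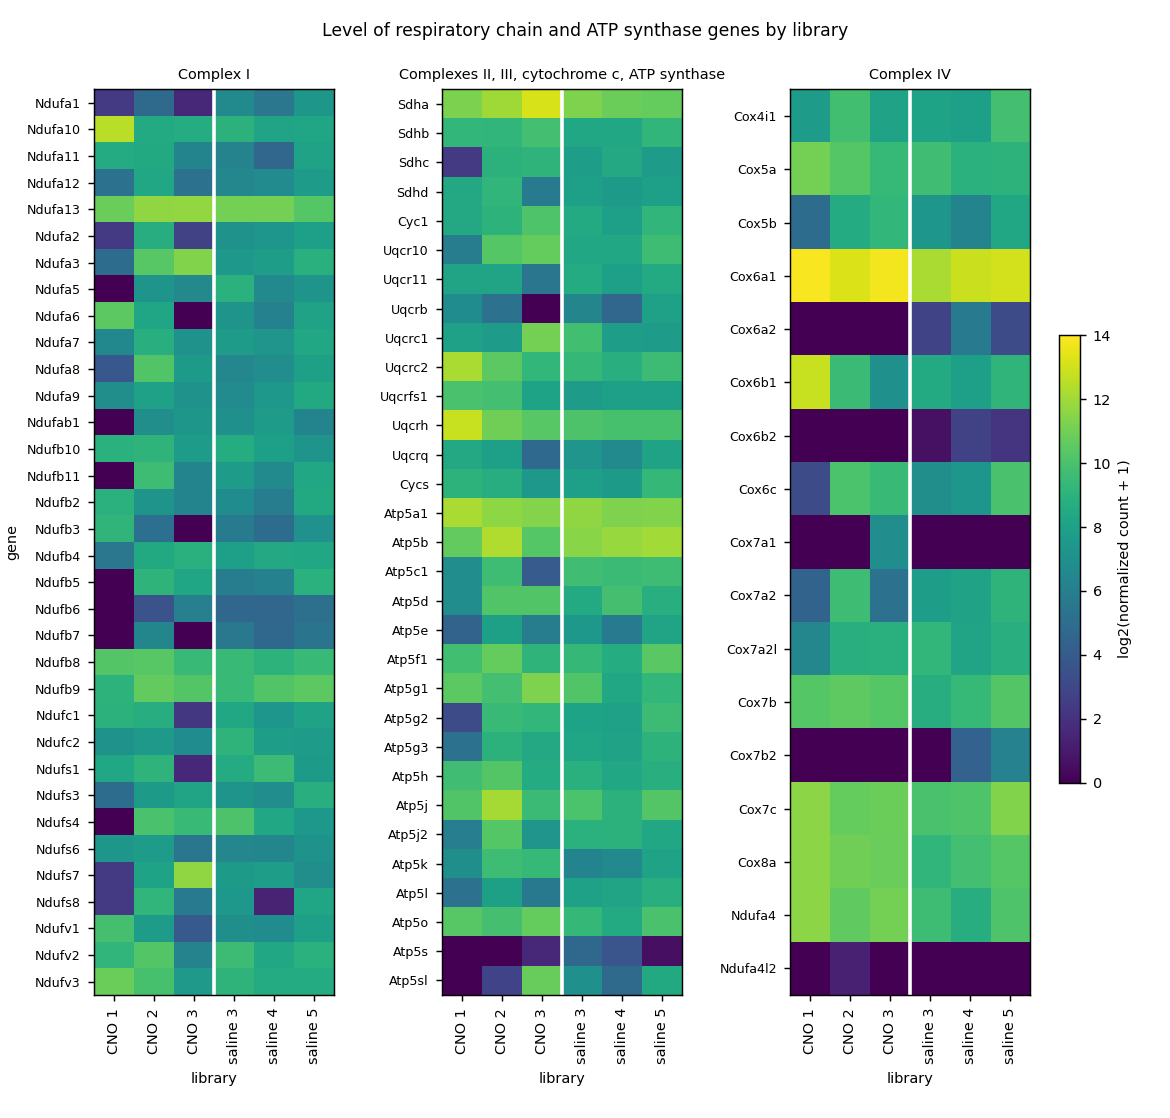
Level of 82 of the 83 genes, as log2(normalized count + 1), in the 3 CNO and the 3 saline libraries, with genes in rows grouped by complex and the groups parted by a white line. Cox6a1 is the highest row in every library, and dark cells at 0 are more frequent in CNO 1 (14 of 83 genes) than in any saline library (2 or 3 of 83).

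The members' values differed more between CNO libraries than between saline libraries. The median SD of the log2 values over the 80 tested members was 1.72 in CNO and 0.66 in saline, beside 2.15 and 0.81 over all tested genes. The SD was larger in CNO for 63 of 80 members (78.75%) and for 80.6% of all genes. For 37 members (46.25%) the highest CNO library was at least 10-fold above the lowest, beside 57.0% of all genes. In saline this held for 5 members (6.25%), beside 19.4% of all genes. A CNO library at least 5-fold below the next was seen for 35 members (43.75%, beside 35.2% of all genes), in 22 of which it was CNO 1, in 13 CNO 3 and in 0 CNO 2. A CNO library at least 5-fold above the next was seen for 18 members (22.5%, beside 35.3%), in 10 of which it was CNO 2, in 5 CNO 3 and in 3 CNO 1. The corresponding counts in saline were 2 (2.5%, beside 12.7% of all genes) and 3 (3.75%, beside 9.85%). Complex I had a median SD of 2.29 in CNO and 0.68 in saline, complex IV 0.87 and 0.72. The CNO median of complex IV is lowered by Cox6a2 and Cox7b2, whose SD is 0 because they had no read in CNO.

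**Figure D4:**
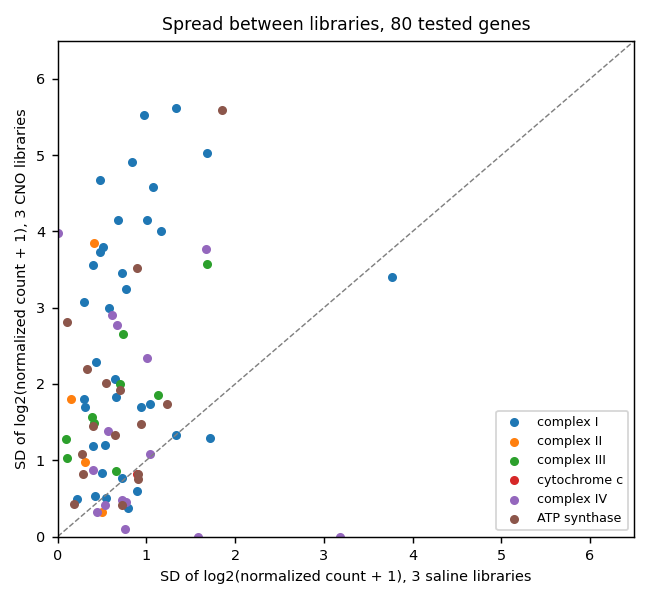
SD of log2(normalized count + 1) over the 3 CNO libraries (vertical) against that over the 3 saline libraries (horizontal) for each of the 80 tested genes, coloured by complex; the dashed line marks equal SD. The SD is larger in CNO for 63 of the 80 genes, and the median is 1.72 against 0.66.

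Of the 80 tested members, 11, 3 and 6 had no read in CNO 1, 2 and 3, and 2, 1 and 1 in saline 3, 4 and 5. With every library thinned to 3908076 reads the counts were 11, 3 and 9 in CNO and 2, 1 and 1 in saline. Over all tested genes 35.2%, 8.93% and 20.1% had no read in CNO and 3.39% to 3.88% in saline. Members without a read in some CNO library numbered 14 of 80 (17.5%, beside 42.8% of all tested genes), and 9 of them were complex I genes: Ndufa5, Ndufa6, Ndufab1, Ndufb3, Ndufb5, Ndufb6, Ndufb7, Ndufb11 and Ndufs4. The others were Uqcrb, Cox6a2, Cox7a1, Cox7b2 and Atp5sl. At most 10 reads were found for 27 members in CNO 1, 4 in CNO 2 and 10 in CNO 3. The rank order of the 80 members was compared between libraries. Spearman's rho ran from 0.39 to 0.66 between CNO libraries, from 0.66 to 0.87 between saline libraries and from 0.60 to 0.82 between groups. These correlations are across genes, which share library and depth, and are given without a test.

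The summed share of the 83 genes in all reads was nearly level. It was 0.512%, 0.559% and 0.438% in CNO 1, 2 and 3 and 0.433%, 0.411% and 0.573% in saline 3, 4 and 5, with means of 0.503% ± 0.0610 and 0.472% ± 0.0883 (SD, n = 3 each). The groups overlapped, and the difference of means was smaller than either SD. Complex IV took 0.144% to 0.214% in CNO and 0.104% to 0.200% in saline, complex I 0.0963% to 0.149% and 0.103% to 0.126%, and ATP synthase 0.0766% to 0.163% and 0.118% to 0.165%. Mbp, which encodes myelin basic protein, alone took 9.60% to 20.8% of reads in CNO and 4.58% to 6.30% in saline. Over all other reads the members' share was 0.599% ± 0.0954 and 0.4996% ± 0.0979, still overlapping, while complex III then lay above saline in every CNO library (0.0519% to 0.0957% against 0.0305% to 0.0501%). On the deposited scale the members summed to 84637, 79540.3 and 72712 normalized counts in CNO and 42695, 39469 and 54987 in saline, without overlap.

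**Figure D5:**
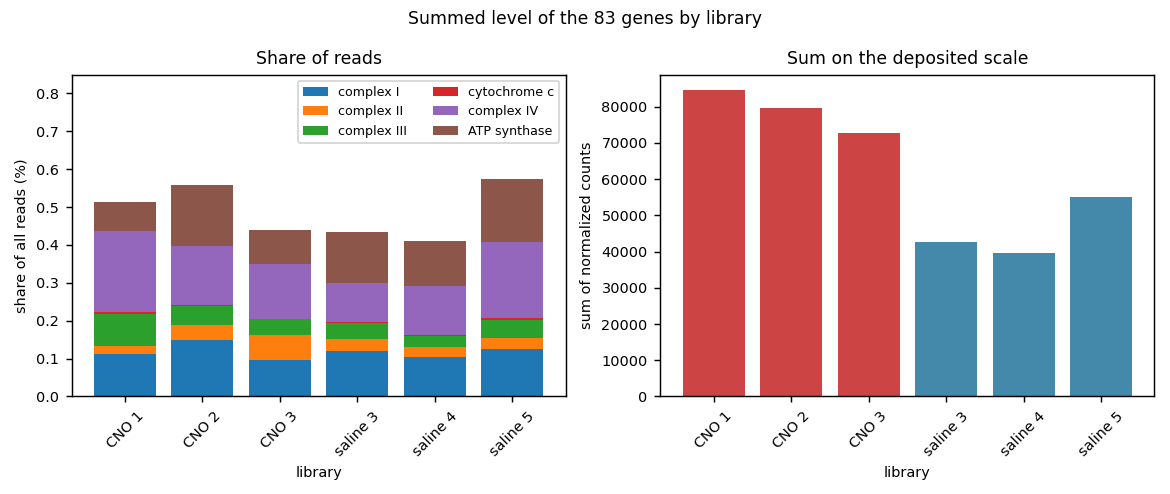
Left, share of all reads (%) taken by the 83 genes in each library, stacked by complex; right, their summed normalized counts. The shares overlap between groups (0.438% to 0.559% in CNO, 0.411% to 0.573% in saline), whereas the sums do not.

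Genes around the respiratory chain were read from lists chosen with earlier results known. None passed in limma over all genes (background 0.0154%), and at an unadjusted p under 0.05 the lists gave 0 higher and 2 lower of 41 tested assembly factors, 0 and 5 of 16 biogenesis regulators, 0 and 1 of 17 citrate cycle genes and 1 and 0 of 23 import and carrier genes. At that threshold 2.28% of all tested genes were higher and 7.25% lower. Median log2 fold changes were -0.62, -2.08, -0.53 and -1.16, beside -0.89 for all genes. Tfam, which packages mitochondrial DNA and starts its transcription, stood at 0, 0.740 and 0 in CNO and 26.6, 25.6 and 88.6 in saline (-5.07 ± 1.72, limma adjusted p = 0.488). Polg, the mitochondrial DNA polymerase, stood at 12.7, 2.96 and 0.970 in CNO and 1040.8, 174 and 211 in saline (-6.16 ± 1.89, adjusted p = 0.488), and DESeq2 called it lower (log2 fold change -6.72). Tefm, a mitochondrial elongation factor, and Tfb1m also lay lower in every CNO library, with -5.54 ± 2.005 and -5.05 ± 1.97. These 4 genes rested on at most 16 reads in any CNO library. With Polg2, 5 of the 16 tested regulators were lower in every CNO library, beside 12.5% of all tested genes. All 5 had a CNO mean below 10 and entered the test only through saline. Tfam, Tefm and Tfb1m had means between 10 and 100. At that level all tested genes had a median of -2.28, and 72.0% had no read in CNO 1. Of the 16 tested regulators, 4 lay above 0 and 12 below. Ppargc1a, a coactivator of mitochondrial genes, stood at 1251, 1006 and 953 in CNO and 1101, 1184 and 890.3 in saline (0.016 ± 0.58), and Gabpa, an ETS factor, had 0.51 ± 0.73. Nrf1 had 0.84 ± 1.19 and the rare Ppargc1b 1.11 ± 2.18. These 4 were chosen after their values were seen, and are the 4 above 0. All overlapped between groups, as did Gabpb1 (-1.79 ± 1.63) and Yy1 (-1.95 ± 2.18), which lay below 0. The means of Gabpb1 and Yy1 over all libraries were 493 and 288, higher than that of Nrf1 at 222.

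Of the assembly factors, Ndufaf6 had 0 reads in all CNO libraries and 30.6, 12.006 and 43.3 normalized counts in saline, through which alone it entered the test. Bcs1l, needed to insert the Rieske protein, had reads in CNO 2 alone of the CNO libraries (-4.56 ± 2.05), Coa3, a complex IV factor, likewise (-4.03 ± 2.38), and Ttc19, a complex III factor, had -2.06 ± 1.09. Cs, citrate synthase, stood at 11047, 3662 and 2331 in CNO and 3286, 1582 and 1641 in saline (1.15 ± 0.61), while Pdhb, a pyruvate dehydrogenase subunit, stood at 21.1, 139 and 134 in CNO and 692, 568 and 289 in saline (-2.70 ± 1.21). Its partner Pdha1 had -2.80 ± 1.38 and Mdh2, malate dehydrogenase, -3.10 ± 2.07, with CNO 2 inside the saline range in both. Tomm70a, an import receptor of the outer membrane, stood at 1800.2, 939 and 1652 in CNO and 379, 529.9 and 399 in saline (1.70 ± 0.67, limma adjusted p = 0.491). Slc25a4, an ADP/ATP carrier that exchanges the product of ATP synthase for ADP, stood at 5929, 4079 and 3032 in CNO and 2799, 1351 and 3166 in saline (0.87 ± 0.50). Timm23 and Timm50, of the inner membrane translocase, had -3.60 ± 2.11 and -3.29 ± 1.92, with CNO 1 and 3 at 8.45 and 0.970 for Timm23 and at 0 for Timm50.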

How the data were processed

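RNA from 6 libraries (10 ng of total RNA each, per the labels' protocols) was analysed. The deposited values are a signal: reads per gene that the authors divided by 1 size factor per library. The submitters' processing notes name Trimmomatic 0.4, FastQC 0.10.1, MultiQC 0.9, STAR 2.5.0a, DESeq2 1.20.0 and mm10; which program counted reads, with which annotation and strand setting, is not stated in these sources, so genes with near-identical copies may share reads. All values (100%) were whole multiples of 1 step within 1e-06 reads, and whole reads were recovered. Floors of 3 reads cover counting error only.

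Groups came from the labels. The test was limma 3.58.1 (R 4.3.3) on log2 with a pseudocount of 1 and a mean of at least 10, variance trend, 2-sided. It was also run on simulated reads with the same dispersion in both groups. Here the spread was larger in CNO, so that run does not give the power of the test for these libraries. A library at 0 weighs heavily on this log scale, so fold changes of low genes depend on the pseudocount and can differ from the ratio of means. Reads served edgeR 4.0.16, DESeq2 1.42.0 and limma-voom. Members, gene lists and tests were chosen with earlier results of these data known. Named were members without overlap, the 4 with the smallest p per complex or list, the 2 highest and 2 lowest per kilobase in each complex, core subunits, paralogs and tested members at 0 in some library. Other members are named after their values were seen. Exon lengths are from GENCODE release 21 on GRCm38, where 81 of 83 symbols matched. Each is the union of all annotated exons of the gene, which can exceed the length of its transcripts and lower the value per kilobase. Promoters are from RefSeq GRCm38.p6. For 1 member, no value of its own is reported here; it is counted in the totals.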

Additional observations from a re-analysis of the deposited data

How the results depend on the processing

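No member passed under any of the 21 other settings. Xist differed among the libraries, and limma was also fitted with high or low Xist as a covariate. At an unadjusted p under 0.05, 7 members were then higher and 1 lower, beside 373 and 1266 of all 13028 tested genes. The median of ATP synthase moved from -0.36 to -0.80 in that fit. Scaling to equal totals was added after the data were seen. It moved the members' median to -0.73, and leaving out libraries gave -0.62 to 0.30, quantile scaling 0.41, edgeR 0.38 and 0.44 with and without the filter, and DESeq2 0.46. In all 22 settings this median lay above that of all tested genes, by 0.23 to 1.08. Against 2 genes called, 0 were called with a mean of at least 50, with genes read in every library, equal totals, without a variance trend, with quantile scaling, in edgeR with the same filter and any 1 library left out (0 to 0). There were 11 with array weights (11 higher), 16 in edgeR without the filter (13 higher, 3 lower), 249 in DESeq2 (69 higher, 180 lower) and 16 in limma-voom (16 higher). The ratio of shares of reads, 1.07, was 1.199 without Mbp, and 1.00003 to 1.193 with 1 library left out. Members at 0 reads averaged 6.67 per CNO library, and 4.5 to 8.5 with 1 left out.

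Over all settings, 50 of the 80 tested members changed sign at least once. Among the 39 genes without overlap or with the 4 smallest p of their complex or list, a choice that favours steady signs, 20 of 800 pairs of gene and setting changed sign, in 4 genes. Cycs was at -0.59 with equal totals, -0.10 and -0.035 in edgeR with and without the filter, -0.19 in limma-voom, and -0.20, -0.043, -0.079 and -0.21 without CNO replicate 1, CNO replicate 2, saline replicate 3 and saline replicate 4 (range -0.21 to 0.62 with 1 library left out). Sdhd was at -0.66 with equal totals, -0.012 with TMM, -0.073 in limma-voom, and -0.29, -0.66 and -0.051 without CNO replicate 1, CNO replicate 2 and saline replicate 4 (range -0.66 to 1.06). Sdhc was at 0.059 with quantile scaling, 0.39 and 0.49 in edgeR with and without the filter, 0.45 in DESeq2 and 1.07 without CNO replicate 1 (range -2.29 to 1.07), and Ndufb7 at 0.062 with quantile scaling. Why they differ was not tested. Genes with 10 or fewer reads, frequent in CNO 1, have imprecise values. No paired analysis was made, because the labels give no pairing of libraries between the groups.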

Other observations

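Subunits that RefSeq also names with an Atp5 symbol, but which the table lists under another, were outside the rule. Usmg5 (also Atp5md), a small subunit of ATP synthase dimers, stood at 0, 743 and 578 normalized counts in CNO 1, 2 and 3 and 236, 203 and 623 in saline 3, 4 and 5 (log2 fold change -2.04 ± 2.21, limma adjusted p = 0.731). Its mean was higher in CNO (440.4 against 354), and the estimate was 0.32 in DESeq2 and 1.08 without CNO 1. 2010107E04Rik (also Atp5mpl), another small subunit, stood at 431, 389 and 236 in CNO and 142, 68.8 and 266 in saline (1.30 ± 1.08, adjusted p = 0.667), with CNO 3 inside the saline range. Both were chosen after the values of the members were seen.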
